A study of Hordeum vulgare with 10 samples.

Results

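The 3 solvent control libraries, of 10 libraries in the series, held the transcript pool of barley root pieces that received the carrier solvent alone. They were chosen by their treatment label, and no measured value entered the choice. The 3 ergosterol and 4 *S. indica* lipid libraries were not used. Wild-type seedlings of *Hordeum vulgare* cv Golden Promise were 7 d old. Pieces of 5 mm, taken from the middle of the root without the upper 2 cm and the last 1 cm, floated overnight in 2.5 mM MES buffer, 24 to a well. The solvent control was methanol, added in buffer at 1 part in 20 and diluted again by the buffer left in the well, and pieces of 2 wells made up each replicate at 2 hpt. The root tip was thus not sampled, and intact roots were not analysed here, so every level is that of cut and floated pieces. A bulk library cannot tell fewer cells of a type from less RNA per cell.

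Roots of cereals take up water and mineral nutrients, and they carry a standing set of defence proteins at the surface and in the cell wall. Many of these proteins are small: protease inhibitors block the digestive enzymes of insects and microbes, pathogenesis-related (PR) proteins and chitinases act on microbial membranes and walls, and thionins permeabilize membranes. Metallothioneins bind metal ions through cysteines, and glutathione S-transferases (GSTs) attach glutathione to reactive compounds. In barley many such genes belong to families of duplicated copies, and the families differ in how evenly their copies are expressed.

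Abundance was estimated as TPM, the share of a transcript in its library after correction for transcript length. Levels of different genes can therefore be set side by side, whereas the read depth is unknown and no counting error can be given. The spread over the 3 libraries, given as the standard deviation (SD, n = 3) or the coefficient of variation (CV, the SD as a percent of the mean), is the only error. Nothing in the labels says that the replicates came from separate batches of plants, so this spread may be partly technical. Each of 37962 distinct transcripts of 35826 loci was counted once, and the values of a library then summed to 1000000 TPM. Levels per library are given throughout in the order replicate 1, 2 and 3. Loci were sorted into 54 classes by words in their description, with 14244 loci in a class and 21582 in none. The classes held 60.6%, 60.1% and 61.0% of all TPM in the 3 libraries.

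The pool was carried by few transcripts. In the 3 libraries 17960, 18653 and 18425 transcripts reached 1 TPM or more, and 17140 did so in all 3. A further 11579 transcripts were listed at 0 in all 3 libraries. Of those with a mean of at least 1 TPM, 102 transcripts reached a mean of 1000 TPM or more, and these held 37.0% of the pool, while the 8996 transcripts between 1 and 10 TPM held 3.87%. The 10 most abundant transcripts made up 14.8% ± 0.546 of the pool (SD, n = 3) and the 100 most abundant made up 36.9% ± 0.748. Summed from the most abundant down, 304, 349 and 311 transcripts reached 50% of the TPM in replicates 1, 2 and 3. The ranking was shared among libraries, with 8 transcripts among the 10 most abundant and 89 among the 100 most abundant in every library.

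Protease inhibitors were the largest class by a wide margin. Their 121 loci held 15.3, 15.3 and 16.1% of all TPM, a mean of 15.6% ± 0.485 (SD, n = 3), and no other class reached a mean of 3%. Only 46 of the loci had a mean of at least 1 TPM and 27 a mean of at least 100 TPM. Among the 30 most abundant transcripts of the pool, 13 were of this class. The most abundant transcript was HORVU.MOREX.r3.1HG0066680.1, described as a wound-induced protease inhibitor, at 38204, 36532 and 41172 TPM. This 1 transcript thus made up between 3.65% and 4.12% of a library.

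The 6 loci described as wound-induced protease inhibitors, a name used for small serine protease inhibitors, were all expressed and summed to 78208, 83449 and 87000.4 TPM. After the leading copy came HORVU.MOREX.r3.1HG0067180.1 (14747, 16466 and 16051 TPM) and HORVU.MOREX.r3.1HG0067190.1 (10798, 13966 and 14534 TPM). The leading copy stood above both, and the second above the third, in every library. Then followed HORVU.MOREX.r3.1HG0067140.1 (10357, 9334 and 10181 TPM) and HORVU.MOREX.r3.1HG0067070.1 (3999.7, 7019 and 4863 TPM). The sixth copy, HORVU.MOREX.r3.1HG0067160.1, was low by comparison, at 102, 133 and 199 TPM. The 6 identifiers lie within a run on chromosome 1H, whose 34 transcripts summed to 78504, 83778 and 87310.2 TPM. Copies within this run thus differed widely, with the leading copy 267-fold above the sixth by their means.

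Chymotrypsin inhibitors, which also act on serine proteases, were spread over 24 loci, 12 of them at 1 TPM or more, and summed to 54588, 50034 and 53713 TPM. By locus, HORVU.MOREX.r3.2HG0122530 led with 25139, 20853 and 24545 TPM. It was followed by HORVU.MOREX.r3.2HG0122600 (15462, 12761 and 13222 TPM), which has a pair of abundant transcripts, and HORVU.MOREX.r3.2HG0122620 (8503, 9451 and 8835 TPM). The first of these followers was above the second in every library. A further copy, HORVU.MOREX.r3.1HG0004290.1, had 3398, 3669.8 and 4246 TPM. Trypsin inhibitors summed to 13397, 10968 and 14661 TPM over 10 loci, and a pair of loci on chromosomes 3H and 4H shared the lead. HORVU.MOREX.r3.3HG0222380.1 had 5960.5, 4975 and 6971 TPM and HORVU.MOREX.r3.4HG0405640.1 had 6033, 4593 and 6038 TPM, so that their ranges overlapped. Both were lowest in replicate 2. HORVU.MOREX.r3.4HG0339960.1, described as a serine-type endopeptidase inhibitor, had the opposite order, at 3386, 4672 and 2801 TPM. Cysteine proteinase inhibitors (cystatins), which act on papain-like proteases, were far lower as a group, with 1319.6, 1347 and 1268 TPM over 27 loci. Cysteine proteases themselves, at 7634, 6789.8 and 6950.2 TPM over 85 loci, exceeded them in every library.

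**Figure D1:**
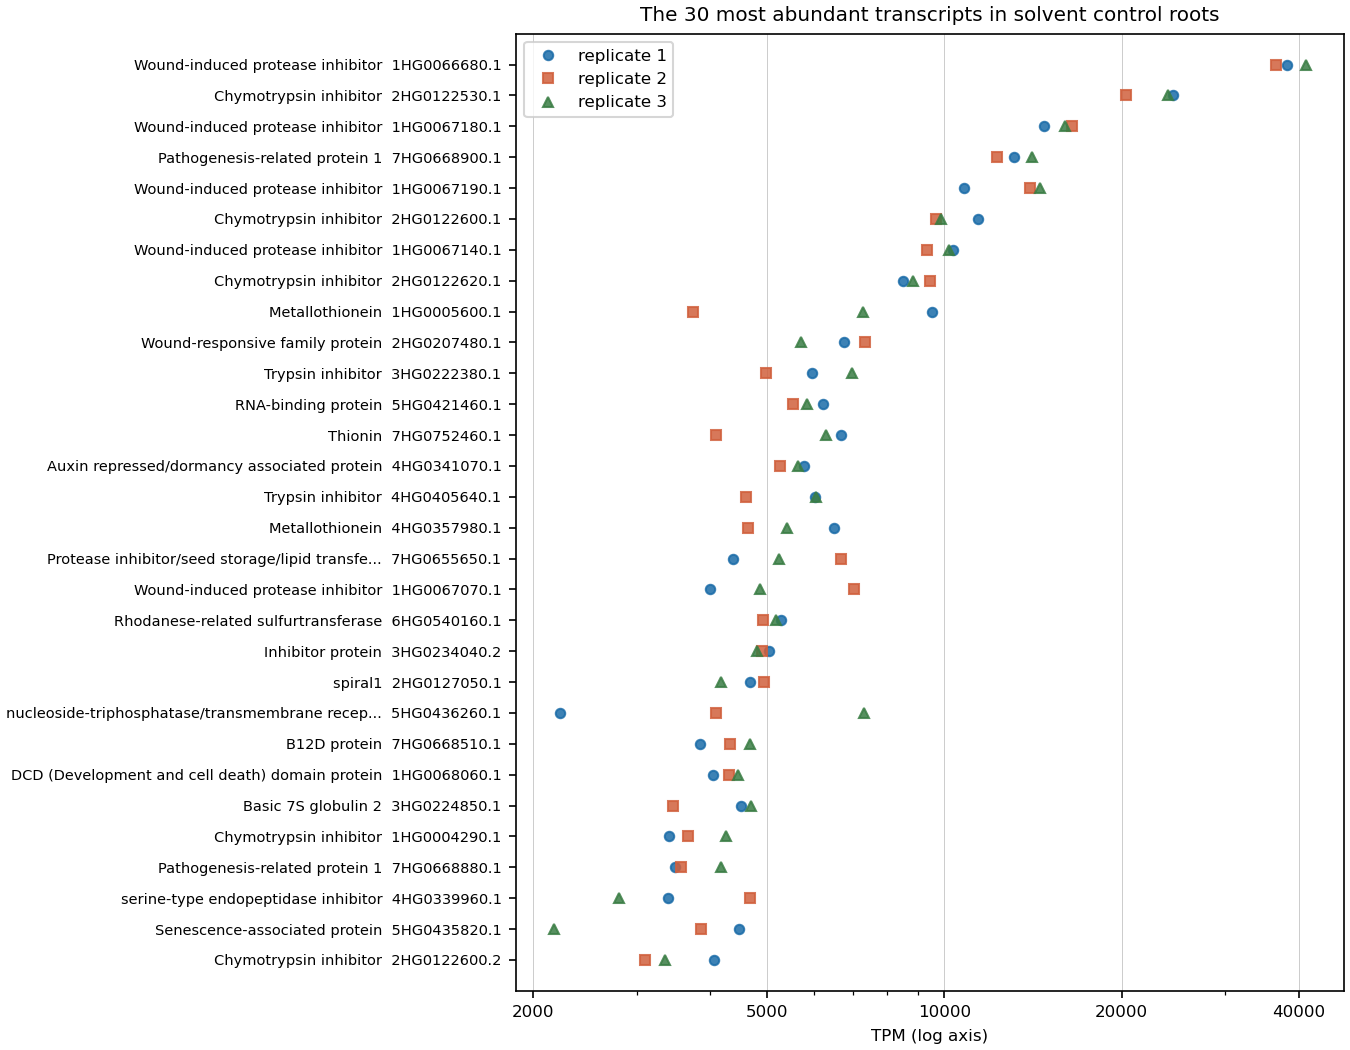
TPM (log axis) of the 30 most abundant transcripts by mean, with 1 symbol per solvent control replicate. Identifiers are shown without their shared prefix HORVU.MOREX.r3. The leading protease inhibitor sits between 36532 and 41172 TPM, above all others, and the metallothionein of chromosome 1H and a transcript described as a nucleoside-triphosphatase show the widest gaps between replicates.

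PR and thaumatin-like proteins came next among the defence classes, with 2.38% ± 0.120 of the pool. Most of this was PR1, a secreted protein widely used as a defence marker that binds sterols. The PR1 leading copy, HORVU.MOREX.r3.7HG0668900.1, stood at 13116, 12275 and 14110.3 TPM and was the fourth most abundant of all transcripts. A neighbouring identifier, HORVU.MOREX.r3.7HG0668880.1, had 3486, 3568 and 4173 TPM, and the third copy, HORVU.MOREX.r3.4HG0383530, had 761, 1112 and 842 TPM. All 3 were thus expressed in every library, but the steps between them were larger than their spread. Of 50 loci described as PR1, 21 reached 1 TPM and 9 reached 100 TPM. Thaumatin-like proteins, 38 loci of the PR5 group, summed to 2028, 2400.5 and 2491 TPM.

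Thionins and defensins, cysteine-rich antimicrobial peptides, had 0.891, 0.540 and 0.815% of the pool and rested on a small part of the class. Of 124 loci, 18 reached 1 TPM, and HORVU.MOREX.r3.7HG0752460, a thionin, carried 75.9% of the class with 6681, 4093 and 6281 TPM. The next were the neighbours HORVU.MOREX.r3.7HG0752450 (1368, 587 and 897 TPM) and HORVU.MOREX.r3.7HG0752500 (691, 476 and 742 TPM). All 3 were lowest in replicate 2. Chitinases, which cleave the chitin of fungal walls, were lower, with 1833, 2059 and 1867 TPM over 38 loci, of which 23 reached 1 TPM. The chitinase HORVU.MOREX.r3.1HG0063630 had 448, 392 and 454 TPM and the acidic endochitinase HORVU.MOREX.r3.3HG0300600 had 306, 394 and 306 TPM, and the first was higher in replicates 1 and 3 only. A single locus was described as xylanase inhibitor protein 1, a type of protein that in wheat blocks fungal xylanases, and HORVU.MOREX.r3.2HG0138340 had 2385, 2935 and 2685 TPM.

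Disease resistance proteins, respiratory burst oxidases and LysM proteins took little of the pool, although the first have many loci. The 597 loci described as disease resistance proteins, intracellular receptors with nucleotide-binding and leucine-rich repeat (NLR) domains, held 0.120, 0.136 and 0.123%. Of these loci 199 reached 1 TPM and 1 reached 100 TPM, namely HORVU.MOREX.r3.3HG0255430, at 157, 185 and 171 TPM. Respiratory burst oxidase homologues, which make the apoplastic superoxide of an ROS burst, summed to 139, 162 and 167 TPM over 15 loci. HORVU.MOREX.r3.4HG0409670 led them with 41.4, 56.7 and 46.5 TPM, ahead of HORVU.MOREX.r3.5HG0444960 (17.1, 23.1 and 32.0 TPM) and HORVU.MOREX.r3.4HG0414140 (20.7, 22.0 and 27.5 TPM), which overlapped. LysM proteins, a group that includes chitin receptors, summed to 128, 183 and 156 TPM over 18 loci, and 50.2% of that came from a single locus.

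Metallothioneins were few and abundant. Their 10 loci held 1.68, 0.923 and 1.36% of the pool, and the class had a CV of 28.9%, against a median of 5.09% over the 54 classes. HORVU.MOREX.r3.1HG0005600.1 had 9534, 3736 and 7281 TPM and HORVU.MOREX.r3.4HG0357980.1 had 6492, 4643 and 5407 TPM, both highest in replicate 1 and lowest in replicate 2. The third locus, HORVU.MOREX.r3.3HG0329490, had the reverse order of replicates 1 and 2, at 582, 753 and 831 TPM. The first locus led in replicates 1 and 3, and the second led in replicate 2. Ferritin, the iron storage protein, was represented mainly by HORVU.MOREX.r3.5HG0465530, at 2735, 2374 and 2255 TPM, which made up 83.6% of the class of iron uptake and mugineic acid genes. Nicotianamine synthase, which makes the precursor of the phytosiderophores that grasses secrete to take up iron, had 14 loci. A single one, HORVU.MOREX.r3.2HG0110000, carried 90.7% of their sum, with 145, 82.9 and 111 TPM.

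GSTs held 1.81% ± 0.0413 of the pool, with a narrow spread between libraries. In contrast to the metallothioneins, many loci contributed, since 37 of 198 loci reached 100 TPM and the leading locus made up 11.2%. The class also has far more loci than the metallothioneins, and 65 of them were listed at 0 in all libraries. The 3 most abundant were HORVU.MOREX.r3.6HG0629260 (2135, 2046 and 1886 TPM), HORVU.MOREX.r3.1HG0051740 (1649, 1490.0 and 1627 TPM) and HORVU.MOREX.r3.1HG0017720 (1239, 1498 and 1354 TPM). The first stood above the other two in every library, and the other two overlapped. Redox enzymes had 1.11, 1.11 and 1.11%, the smallest relative spread of the 54 classes as deposited. Spreads this small can change when the libraries are scaled, as described below. The glutaredoxin HORVU.MOREX.r3.2HG0180500, a small thiol reductase, had 2379.6, 2369.8 and 2347 TPM, the glutathione peroxidase HORVU.MOREX.r3.2HG0188850 had 896, 884 and 933 TPM, and the copper/zinc superoxide dismutase HORVU.MOREX.r3.2HG0115300 had 748, 799.9 and 873 TPM.

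Transcripts named for wounding, dormancy and stress were also abundant. Loci named wound-responsive or wound-induced outside the protease inhibitors held 1.82, 1.96 and 1.51% of the pool. HORVU.MOREX.r3.2HG0207480, a wound-responsive family protein, had 6748, 7313 and 5695 TPM, ahead of HORVU.MOREX.r3.2HG0135420 (2974, 3107 and 2305 TPM) and HORVU.MOREX.r3.2HG0207520 (2256, 2380.2 and 1853 TPM). All 3 were lowest in replicate 3, as was the class. Only 4 loci were described as auxin-repressed or dormancy-associated, a group of small proteins known from non-growing tissue, and HORVU.MOREX.r3.4HG0341070 carried 91.5% of them with 5777, 5256 and 5646 TPM. Dehydration and stress proteins held 1.39% ± 0.0858. They were led by HORVU.MOREX.r3.3HG0253630, a late embryogenesis abundant protein, at 1895, 1416 and 2258 TPM, followed by HORVU.MOREX.r3.3HG0299950, an early response to dehydration protein, at 1163, 1117 and 1142 TPM. The first varied widely between libraries and the second did not, with CVs of 22.7% and 2.05%. The only non-symbiotic hemoglobin, an oxygen- and nitric oxide-binding protein, was HORVU.MOREX.r3.4HG0394960, at 1046, 1176 and 1078 TPM.

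Genes of protein turnover and nitrogen remobilization were well represented. Proteases held 1.33% ± 0.0697 of the pool. The cysteine protease HORVU.MOREX.r3.2HG0204520 had 2553, 2445 and 2409.6 TPM and the cysteine proteinase HORVU.MOREX.r3.5HG0499760 had 2618, 2278 and 2293 TPM, with overlapping ranges, and the aspartic proteinase HORVU.MOREX.r3.1HG0089460 was below both at 1742, 1590.2 and 1568 TPM. Autophagy genes, which deliver cytoplasm to the vacuole, had 0.343, 0.282 and 0.289%, and HORVU.MOREX.r3.2HG0194650 and HORVU.MOREX.r3.2HG0141620 led with 1709.7, 1360.4 and 1442 TPM and with 935, 751 and 748 TPM. Both were highest in replicate 1. Asparagine synthetase, which makes the amide that moves nitrogen through the plant, was highest in the same replicate at both leading loci. HORVU.MOREX.r3.4HG0384790 had 2581, 1119.9 and 1527 TPM, and the second locus, HORVU.MOREX.r3.5HG0465890, had 811, 731 and 713 TPM, a narrower range. The class of amino acid and nitrogen assimilation genes also held cysteine synthase HORVU.MOREX.r3.5HG0424290, at 1293, 1351 and 1302 TPM.

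Proteasome subunits and ubiquitin-conjugating enzymes held 1.09% ± 0.0120, and ubiquitin and SUMO held 0.833% ± 0.0125. The ubiquitin-conjugating enzyme HORVU.MOREX.r3.1HG0070790 had 976, 1129 and 1126 TPM. The class was steady as deposited, with a median transcript CV of 5.94%. Its effective number of loci (the inverse of the summed squared shares) was 32.6, of 124 loci in all. Chaperones held 1.20% ± 0.0447, led by the chaperone regulator of the BAG family HORVU.MOREX.r3.3HG0297880 with 1830.2, 1421 and 1611 TPM.

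The machinery of gene expression took a moderate share. Translation factors held 1.43, 1.57 and 1.52% of the pool and were led by the translationally controlled tumour protein HORVU.MOREX.r3.4HG0363180 with 1644, 1703 and 1671 TPM and elongation factor 1-alpha HORVU.MOREX.r3.2HG0107850 with 1197, 1233 and 1249 TPM. Initiation factor 3 subunit G, HORVU.MOREX.r3.2HG0195510, was less steady at 785, 1318 and 1360.4 TPM. Splicing and RNA-binding proteins held 2.21% ± 0.0191, of which HORVU.MOREX.r3.5HG0421460 had 6224, 5533 and 5836 TPM and HORVU.MOREX.r3.4HG0333810 had 3563, 3033 and 3486 TPM. Both were lowest in replicate 2.

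Loci described as ribosomal proteins held 0.483, 0.587 and 0.595% of the pool over 59 loci, lowest in replicate 1. HORVU.MOREX.r3.1HG0026070 had 1326, 1281 and 1329 TPM, ribosomal protein L11 HORVU.MOREX.r3.2HG0194250 had 437, 564 and 636 TPM and L19 HORVU.MOREX.r3.2HG0112820 had 391, 515 and 482 TPM. The descriptions analysed here include 0 with the words 40S or 60S ribosomal protein, the usual names of cytosolic subunits, so this share is that of the described loci and not of all cytosolic ribosomal proteins. Likewise 18 transcripts begin with cytochrome P450, and the value of 0.0753% ± 0.00630 for P450s and related monooxygenases holds for those words only.

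Glycolysis and fermentation held 0.846% ± 0.0344, the respiratory chain 0.652% ± 0.0137 and the TCA cycle 0.419% ± 0.00845 of the pool, with little spread between libraries. Glyceraldehyde-3-phosphate dehydrogenase HORVU.MOREX.r3.7HG0703580 had 947, 1143 and 1029.7 TPM, and isocitrate dehydrogenase HORVU.MOREX.r3.3HG0276570 had 682, 691 and 637 TPM. Alcohol dehydrogenase, the last step of ethanol fermentation, summed to 2410.2, 2468 and 2432 TPM over 35 loci, with HORVU.MOREX.r3.5HG0479000 in the lead at 699, 681 and 702 TPM. S-adenosylmethionine decarboxylase HORVU.MOREX.r3.2HG0178690, an enzyme of polyamine synthesis, had 3070.0, 2904 and 3022 TPM.

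Regulatory genes were numerous and individually low. Kinases, including receptor kinases, held 2.81, 3.05 and 2.74% over 2664 loci, and transcription factors held 2.82, 2.86 and 2.79% over 1887 loci, so that both classes overlapped in share. Of the kinase loci 1245 reached 1 TPM and 39 reached 100 TPM. The kinase class was matched by words, so it also holds metabolic enzymes such as nucleoside diphosphate kinase. The kinase class was led by HORVU.MOREX.r3.5HG0435490, described as a lectin protein kinase, with 2346, 2569 and 1655 TPM, far above the second, the U-box kinase HORVU.MOREX.r3.2HG0109330 with 426, 505 and 391 TPM. The third, the leucine-rich repeat receptor-like kinase HORVU.MOREX.r3.7HG0728380, had 385, 431 and 399.5 TPM and overlapped with the second. Loci described as receptor kinases summed to 5261, 6226 and 5731 TPM over 961 loci.

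Among transcription factors, the MYB protein HORVU.MOREX.r3.1HG0009050 led with 1122, 1726 and 1354 TPM, followed by the MYB protein HORVU.MOREX.r3.3HG0330150 with 515, 845 and 609 TPM. Both were highest in replicate 2. Ethylene-responsive transcription factor HORVU.MOREX.r3.4HG0405650 had 627, 558 and 635 TPM. WRKY factors, regulators of defence genes, summed to 1579, 1588 and 1582 TPM over 107 loci. As deposited they were the steadiest of the groups of transcription factors summed here. NAC domain factors summed to 3579.8, 3108 and 3249.8 TPM over 160 loci. Calmodulins and calcium sensors held 0.618% ± 0.0400 of the pool, led by the calcium-binding protein HORVU.MOREX.r3.2HG0124540 with 849.6, 1069 and 698 TPM. The 14-3-3 proteins and small GTPases held 0.790% ± 0.0269, led by the ADP-ribosylation factor HORVU.MOREX.r3.1HG0070060 with 1336, 1312 and 1372 TPM.

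Among genes of water and nutrient uptake, aquaporins rested on few copies and nutrient transporters on many. Aquaporins, the water channels, summed to 4850.0, 4644 and 5394 TPM over the 24 loci so described. HORVU.MOREX.r3.4HG0407580 carried 57.5% of this sum with 2862, 2550.4 and 3150.0 TPM, far above HORVU.MOREX.r3.7HG0711310 (409, 417 and 415 TPM) and HORVU.MOREX.r3.2HG0182400 (358, 329.9 and 432 TPM). Nutrient transporters held 0.890% ± 0.0224 over 490 loci, and the leading locus made up 7.49% of the class. The sugar transporter HORVU.MOREX.r3.2HG0157210 had 668, 698 and 634 TPM and the cationic amino acid transporter HORVU.MOREX.r3.5HG0425110 had 533, 452 and 472 TPM. High affinity nitrate transporters summed to 805, 538 and 646 TPM, mostly from HORVU.MOREX.r3.6HG0591170, at 548, 361 and 435 TPM. Proton pumps, which energize transport, held 0.387% ± 0.00716, and the plasma membrane ATPase HORVU.MOREX.r3.2HG0202670, with 12.1% of the class, led with 433, 516 and 455 TPM.

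Class III peroxidases, secreted enzymes that cross-link wall polymers, held 0.985, 1.07 and 1.15% of the pool. HORVU.MOREX.r3.2HG0215250 had 1921, 2024 and 2347 TPM and HORVU.MOREX.r3.7HG0713280 had 1751, 1866 and 2088 TPM, which overlapped, and HORVU.MOREX.r3.3HG0325250 had 958, 949.8 and 1109 TPM. All 3 were highest in replicate 3. Lignin and phenylpropanoid enzymes held 0.910% ± 0.0172. Phenylalanine ammonia-lyase, the entry step of the pathway, had 14 loci, and HORVU.MOREX.r3.6HG0596580 carried 89.96% of their sum with 2054, 2580.5 and 2392 TPM. Germin-like, laccase and dirigent proteins held 0.863% ± 0.0467. The germin-like proteins HORVU.MOREX.r3.7HG0721830 and HORVU.MOREX.r3.4HG0335360 had 2879.8, 2330.2 and 2538 TPM and 1564, 1893 and 2175 TPM, with opposite orders of replicates 1 and 3.

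Lipid transfer proteins, which bind lipids in the wall and belong to the same fold as some protease inhibitors, held 1.10, 1.51 and 1.14%, highest in replicate 2. HORVU.MOREX.r3.7HG0655650 had 4366, 6671 and 5233 TPM, HORVU.MOREX.r3.2HG0193840 had 1489.6, 2335 and 1193 TPM and HORVU.MOREX.r3.7HG0732460 had 1384, 1335 and 960.1 TPM. Lipid and sterol metabolism held 1.26, 1.26 and 1.27% over 622 loci, with hardly any spread as deposited. It was led by acyl-CoA dehydrogenase HORVU.MOREX.r3.1HG0014530 with 666, 628 and 566 TPM and the ketoacyl-CoA thiolase HORVU.MOREX.r3.6HG0629790 with 611, 502 and 563 TPM. Wall polysaccharide enzymes held 0.571% ± 0.0120, led by pectate lyase HORVU.MOREX.r3.3HG0306620 with 686, 438 and 568 TPM and xyloglucan endotransglucosylase HORVU.MOREX.r3.2HG0192890 with 582, 384 and 456 TPM. Expansins, which loosen growing walls, summed to 319, 378 and 351 TPM over 83 loci, 1 of them at 100 TPM or more.

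**Figure D2:**
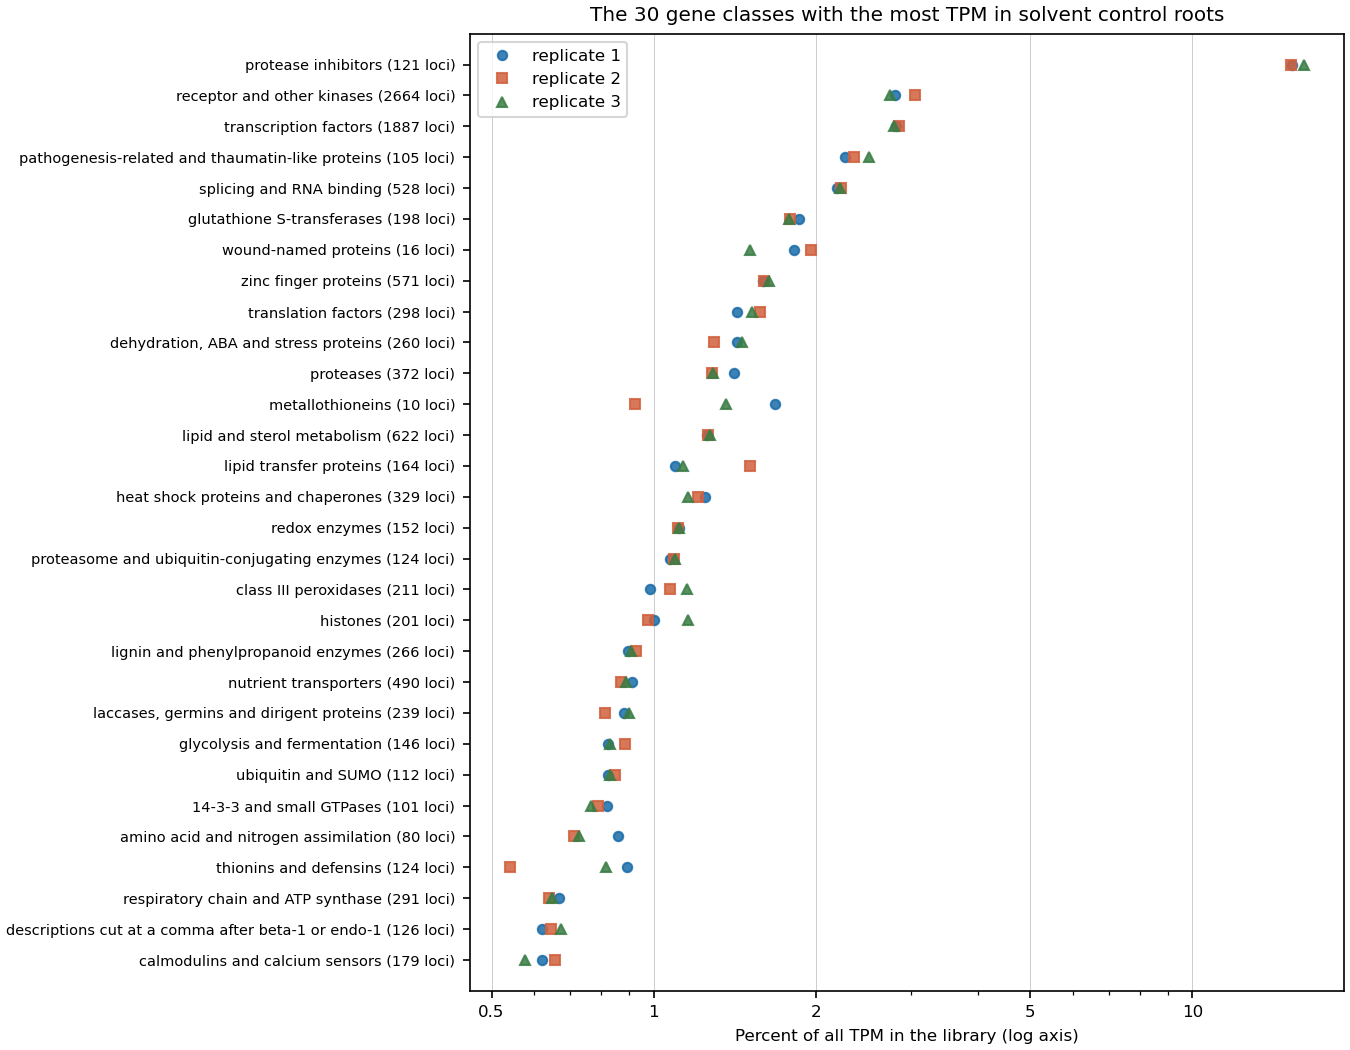
Percent of all TPM (log axis) held by the 30 classes with the highest means, 1 symbol per solvent control replicate, with the number of loci in parentheses. Protease inhibitors sit between 15.3% and 16.1%, above all other classes, which lie at 3.05% or below, and metallothioneins, thionins and lipid transfer proteins show the widest gaps between replicates.

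Marker lists were read for tissue identity. The endodermis list, of proteins that build or resemble the Casparian strip proteins, summed to 2306, 2011 and 2157 TPM over 45 loci, of which 26 reached 1 TPM. Most of it came from HORVU.MOREX.r3.1HG0063980, described only as CASP-like protein, with 1565, 1311 and 1421 TPM. That description alone does not place a transcript in the endodermis. The list for root hairs and phytosiderophores summed to 200.0, 149 and 171 TPM over 20 loci. Of these, 3 reached 1 TPM and 12 were listed at 0 in all libraries. The nicotianamine synthase HORVU.MOREX.r3.2HG0110000 given above made up most of the sum. Leaf photosynthesis genes were close to 0, with 4.41, 8.69 and 4.79 TPM over 12 loci, and the Rubisco small chain HORVU.MOREX.r3.5HG0468970 had 1.37, 5.45 and 4.18 TPM. The wider photosynthesis class of 69 loci summed to 38.1, 34.1 and 32.2 TPM, led by the oxygen-evolving enhancer protein HORVU.MOREX.r3.6HG0596880 with 23.7, 13.3 and 16.3 TPM. Leaf transcripts were thus low in these root libraries. The list for secondary walls, led by loci described only as cellulose synthase, summed to 1017, 997 and 1037 TPM. That description does not tell primary from secondary walls. The pollen and anther list summed to 700.4, 750.1 and 678 TPM, of which HORVU.MOREX.r3.3HG0250450, an Ole e 1 family protein, had 183, 170.4 and 188 TPM.

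The grain storage list, in contrast, summed to 5640.2, 4672 and 5906 TPM over 54 loci. Of these, 33 were listed at 0 in all libraries, and 12 reached 1 TPM. Most of the sum was HORVU.MOREX.r3.3HG0224850, described as basic 7S globulin 2, with 4508, 3450.4 and 4698 TPM. A neighbouring copy, HORVU.MOREX.r3.3HG0224820, had 334, 253 and 363 TPM, and both were lowest in replicate 2. The third locus, HORVU.MOREX.r3.5HG0504050, described as 11S globulin seed storage protein 2, had 309, 299 and 338 TPM. In soybean basic 7S globulin is a protein of the seed that is related to aspartic proteases. The replication and mitosis list summed to 5843, 6996 and 6660.4 TPM over 229 loci, of which 113 reached 1 TPM. Its 3 leading loci held 75.2% of the sum, and without them it was 1433, 1738 and 1666 TPM. Its largest values came from HORVU.MOREX.r3.5HG0528020, described as DNA polymerase epsilon catalytic subunit A, with 2104, 2506 and 2389 TPM, and from HORVU.MOREX.r3.5HG0521940, described as phragmoplast orienting kinesin 1, with 1448, 1971 and 1857 TPM. The third, HORVU.MOREX.r3.2HG0137660, described as DNA polymerase epsilon catalytic subunit, had 858, 782 and 748 TPM.

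To ask which copies carry a family, loci that share a description word for word were grouped. There were 882 such families with at least 3 loci and a summed mean of at least 100 TPM, and they held 73.4% of the pool. They had 16967 loci in all, 52.4% of them at 1 TPM or more. The median share of the leading copy was 53.9%, 53.4% and 53.3% in the 3 libraries, a mean of 53.5% ± 0.319 (SD, n = 3). In 483 families, or 54.8%, the leading copy held more than 50% of the mean, and in 99 it held more than 90%. The same copy led in all 3 libraries in 783 families, or 88.8%. The median share of the leading copy was 28.7% in the 202 families with 20 or more loci and 70.5% in the 314 families with 3 to 5, a share that falls by itself as copies are added. The effective number of copies (defined as for loci above) had a median of 6.87 in the larger families, or 17.4% of their loci, and of 1.80 in the smaller, or 49.2%.

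The 15 families with the most TPM ranged widely in how many copies contributed. Thionin was at the dominant end among the large ones, as HORVU.MOREX.r3.7HG0752460 carried 90.05%, 88.4% and 88.9% of 55 loci. The family described only as inhibitor protein rested on HORVU.MOREX.r3.3HG0234040, which carried 97.7, 98.3 and 98.8% of 10 loci with 8142, 8015 and 7718 TPM, and the auxin-repressed family on HORVU.MOREX.r3.4HG0341070 with 93.2, 93.7 and 93.7%. PR1 lay between, where the leading copy held 66.0, 61.1 and 65.6%. The lowest shares of a leading copy were those of GSTs and peroxidases. The leading GST held 14.3, 14.1 and 13.2% of 88 loci, with an effective number of 19.3 copies. The leading peroxidase held 20.0, 19.4 and 20.8% of 207 loci, with an effective number of 10.1. Both families are large, and such a share falls as copies are added, so it does not show that they are even for their size. Shares of the leading copy differed between families by far more than between libraries.

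In 12 of the 15 families the same copy led in every library. The 3 others were families with a close pair. Metallothionein and trypsin inhibitor are given above. For senescence-associated protein the pair was HORVU.MOREX.r3.5HG0435820 (4469.7, 3864 and 2167 TPM) and HORVU.MOREX.r3.2HG0133820 (3090.3, 4305 and 2599.7 TPM), and the first led in replicate 1 and the second in replicates 2 and 3. The remaining 5 loci of that family were at most 20.9 TPM in any library.

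**Figure D3:**
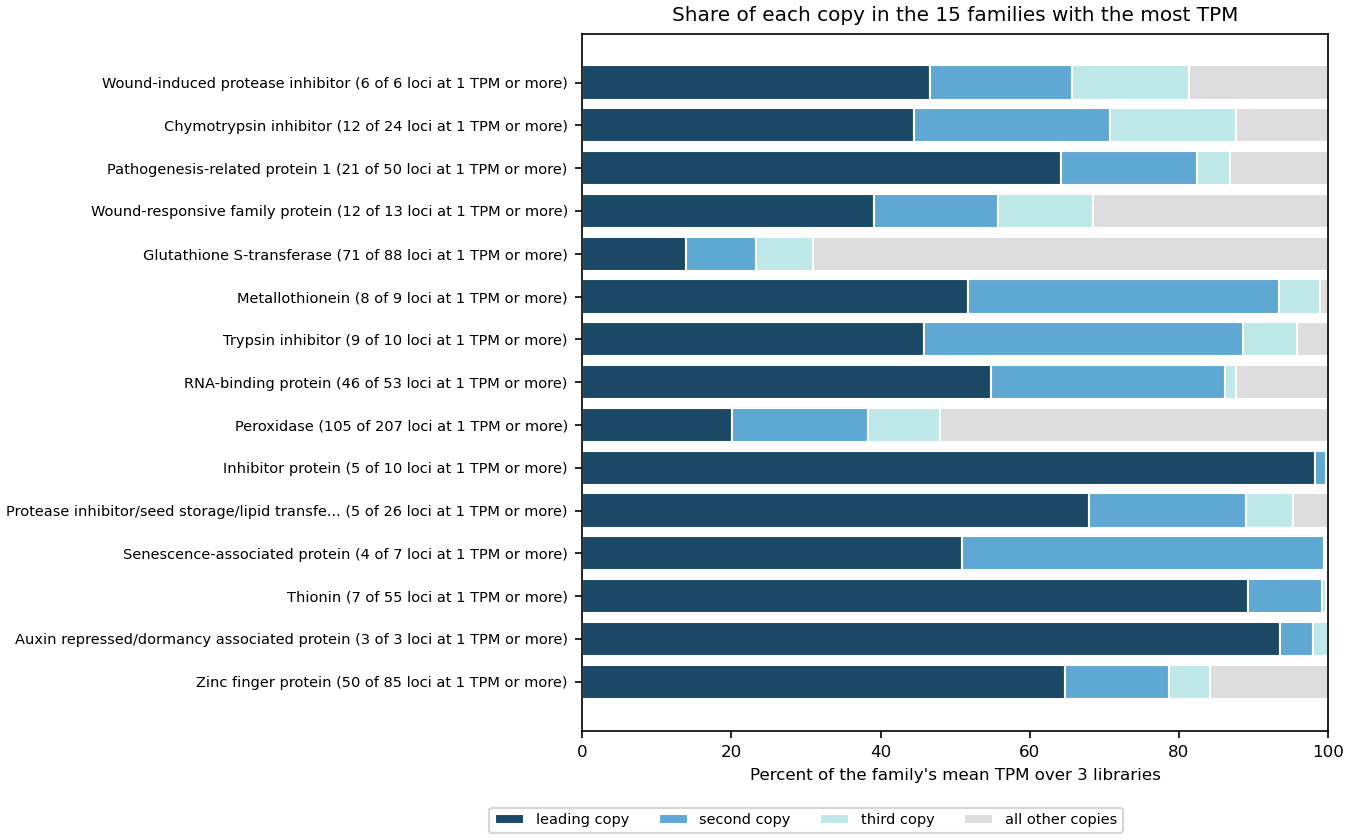
Percent of a family's mean TPM over the 3 solvent control libraries that came from its leading copy, its second, the third and all other copies, for the 15 families with the most TPM. The leading copy ranges between 13.9% for glutathione S-transferase and 98.3% for inhibitor protein.

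At the extremes of all 882 families, the lowest shares of a leading copy were 4.20% in the 200 loci described as kinase family protein, 5.88% in translation initiation factor IF-1, 6.79% in WD-repeat protein, 7.37% in receptor-like kinase and 7.85% in RING/U-box superfamily protein. In 11 families every other copy was listed at 0 in each library, among them those of argininosuccinate synthase HORVU.MOREX.r3.1HG0064320, gamma-gliadin HORVU.MOREX.r3.7HG0639310 and ketol-acid reductoisomerase HORVU.MOREX.r3.1HG0090780. The evenness of the IF-1 family, which takes part in translation of the bacterial type, had a particular form. Of its 46 loci 17 had the same value, digit for digit, in each library, namely 54.5, 59.7 and 42.3 TPM. Among the 17258 loci averaging 1 TPM or more there were 31 sets with equal values in all 3 libraries, with 90 loci and 0.229% of the pool, and 26 of the sets shared a description. For such loci, and for near-identical copies in general, the division of TPM among copies is uncertain. Whether equal copies have equal sequences was not tested, because no sequences were used here.

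Some of the abundant families lie in runs of identifiers. Chromosome 1H held 20.0% ± 0.426 and 2H held 21.5% ± 0.394 of the TPM, with 12.4% and 16.2% of the loci. Protease inhibitors made up 9.10 percentage points of the pool on 1H and 4.65 on 2H. Chromosome 6H was lowest among the 7 chromosomes, with 8.44% ± 0.124 of the TPM and 12.0% of the loci. On 2H, 9 transcripts within the run that holds the leading chymotrypsin inhibitors summed to 49389.8, 43274 and 46742 TPM. On 7H, the pair of PR1 loci above summed, with 1 further transcript between them, to 16602, 15843 and 18283 TPM.

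The libraries were close to each other over the whole pool. Among the 18409 transcripts that averaged 1 TPM or more, Pearson's r of log2(TPM + 1) was 0.971 between replicates 1 and 2, 0.975 between 1 and 3 and 0.977 between 2 and 3. These values describe agreement across transcripts, which are not independent replicates. For the 9413 transcripts averaging 10 TPM or more, the median CV was 10.4%. There were 4499, or 47.8%, with a CV under 10%, and 115, or 1.22%, with a CV over 50%. The highest library exceeded the lowest at least 2-fold, on the scale of TPM + 1, for 306 transcripts. The CV depended on level mainly at the low end. The median CV was 20.6% between 1 and 10 TPM, 10.6% between 10 and 100 TPM, 9.15% between 100 and 1000 TPM and 10.1% at 1000 TPM or more.

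Sums over classes were steadier than single transcripts, with a CV under 10% for 43 of 54 classes. For families, the sum had a smaller CV than its leading copy in 629 of 882, with medians of 7.08% for the sum and 9.01% for the leading copy. Averaging over several copies lowers a CV by itself. The classes with the widest spread were lipoxygenase-homology domain proteins with 30.5%, metallothioneins with 28.9% and thionins and defensins with 24.7%. In all 3 replicate 1 was highest and replicate 2 lowest. The lipoxygenase-homology class consisted of the neighbours HORVU.MOREX.r3.2HG0209730 (3636, 1938 and 2583 TPM) and HORVU.MOREX.r3.2HG0209720 (969, 551 and 789 TPM).

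**Figure D4:**
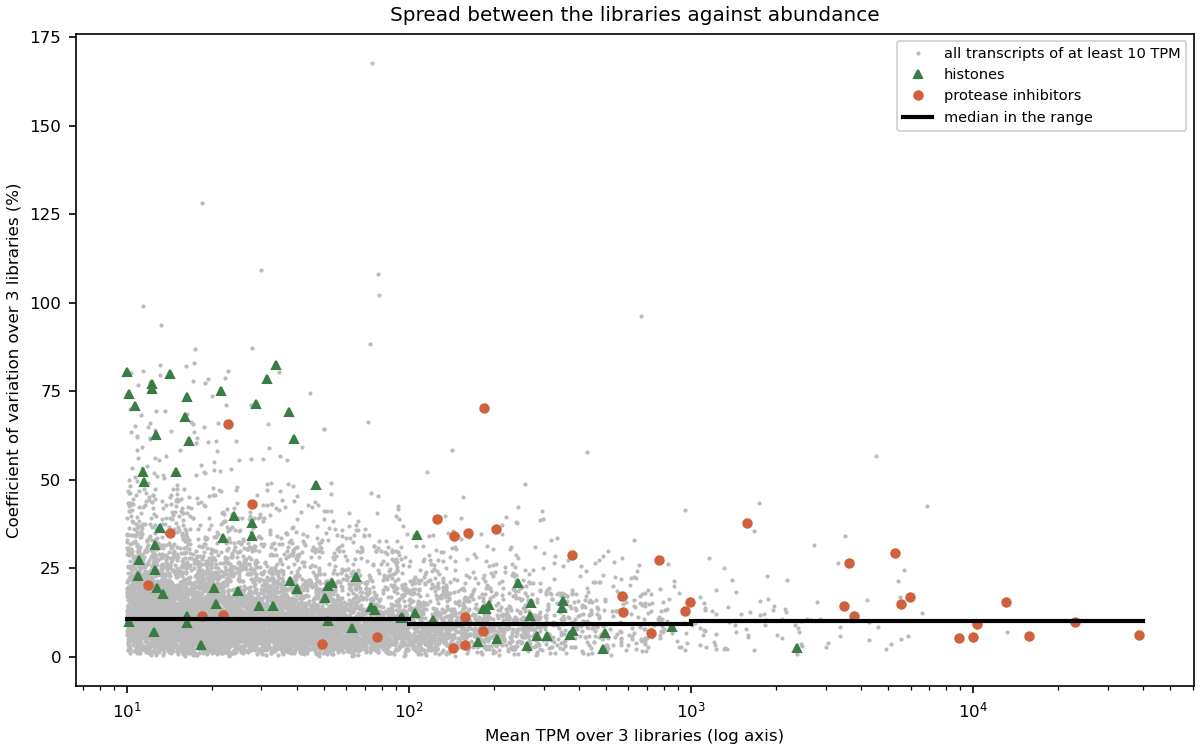
CV over the 3 solvent control libraries (percent) against the mean TPM (log axis) of 9413 transcripts of at least 10 TPM, with histones as triangles, protease inhibitors as large circles and the median CV of each range as a black line. The medians run between 9.15% and 10.6%, and many histones between 10 and 100 TPM lie above them.

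Histones, the proteins that package DNA and whose synthesis is tied to DNA replication, showed a shared pattern. Of the 75 histone transcripts averaging 10 TPM or more, 61, or 81.3%, were highest in replicate 3, against 24.4% of all 9413 transcripts. With the libraries scaled by the median ratio of their transcripts the count was 57. The median histone transcript had 27.9, 28.9 and 51.9 TPM. The count was 16 of 17 for histone H4, 11 of 13 for H2B, 13 of 16 for H3 and 15 of 22 for H2A. Histone H4 summed to 1353, 1376 and 1936 TPM over 52 loci, H2B to 889, 844 and 1084 TPM, H3 to 2358, 2231 and 2674 TPM and H2A to 3984, 3973 and 4369 TPM.

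As deposited, replicate 3 was highest for most copies at both higher and lower abundance, whereas the size of the difference varied with abundance. The most abundant histone loci were HORVU.MOREX.r3.2HG0138280, an H2A, with 2321, 2343 and 2435 TPM, HORVU.MOREX.r3.7HG0661210, an H3, with 909, 775 and 891 TPM, and HORVU.MOREX.r3.5HG0509800, an H2A, with 506, 490.0 and 513 TPM. These differed little between replicates, and the H3 was highest in replicate 1. The 22 histone transcripts at 100 TPM or more had a median CV of 9.45% and the 53 between 10 and 100 TPM had a median of 27.4%. As deposited, replicate 3 was highest for 16 of the 22 and for 45 of the 53. Counts by level with scaling are not given here, and small differences such as those of the abundant copies can change order with it. Of 37 transcripts of the replication and mitosis list at 10 TPM or more, 3 were highest in replicate 1, 23 in replicate 2 and 11 in replicate 3. With scaling by median ratios these counts were 10, 10 and 17. The part that cell division plays in the histone pattern was not tested.

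Which library is highest changed with scaling for 2367 of the 9413 transcripts of at least 10 TPM, or 25.1%. As deposited, 47.6% of these transcripts were highest in replicate 2 and 28.1% in replicate 1. With scaling by median ratios these shares were 27.0% and 47.2%. The scaling factors of replicates 1, 2 and 3 were 0.947, 1.06 and 1.00, a shift of 0.16 on the log2 scale between replicates 2 and 1. Kinases shifted in the same direction, with 343 of 599 transcripts (57.3%) highest in replicate 2 as deposited and 206 (34.4%) with scaling. Both shares were above those of all transcripts. The largest factor exceeded the smallest by 12.0%, so an order of libraries that rests on smaller differences is set by the scaling. CVs of classes, family sums and named transcripts are likewise as deposited, and small ones can change with scaling.

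The 20 transcripts with the widest spread on the log2(TPM + 1) scale, among those of at least 10 TPM, were highest in replicate 1 for 9, in replicate 2 for 9 and in replicate 3 for 2. The widest was HORVU.MOREX.r3.5HG0436340.1, described as DNA gyrase inhibitor YacG, with 217, 4.81 and 0 TPM. The transcript HORVU.MOREX.r3.6HG0588430.1, described as nucleobase-ascorbate transporter 12, was the most abundant of the 20, with 1392, 401 and 199 TPM. The protein kinase HORVU.MOREX.r3.6HG0547130.1 had 135, 75.8 and 7.03 TPM, and the MADS-box transcription factor HORVU.MOREX.r3.1HG0054230.1 had 67.2, 5.97 and 16.7 TPM. These were highest in replicate 1. By contrast the CLE peptide gene HORVU.MOREX.r3.2HG0183900.1, a member of a family of signalling peptides, had 1.36, 21.2 and 16.6 TPM, and early nodulin 93 HORVU.MOREX.r3.7HG0649490.1 had 1.08, 17.1 and 12.8 TPM, both low in replicate 1 only. ATP sulfurylase HORVU.MOREX.r3.5HG0509820.2, the first enzyme of sulfate assimilation, had 36.3, 174 and 22.4 TPM, high in replicate 2 only. It is the second transcript of its locus.

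**Figure D5:**
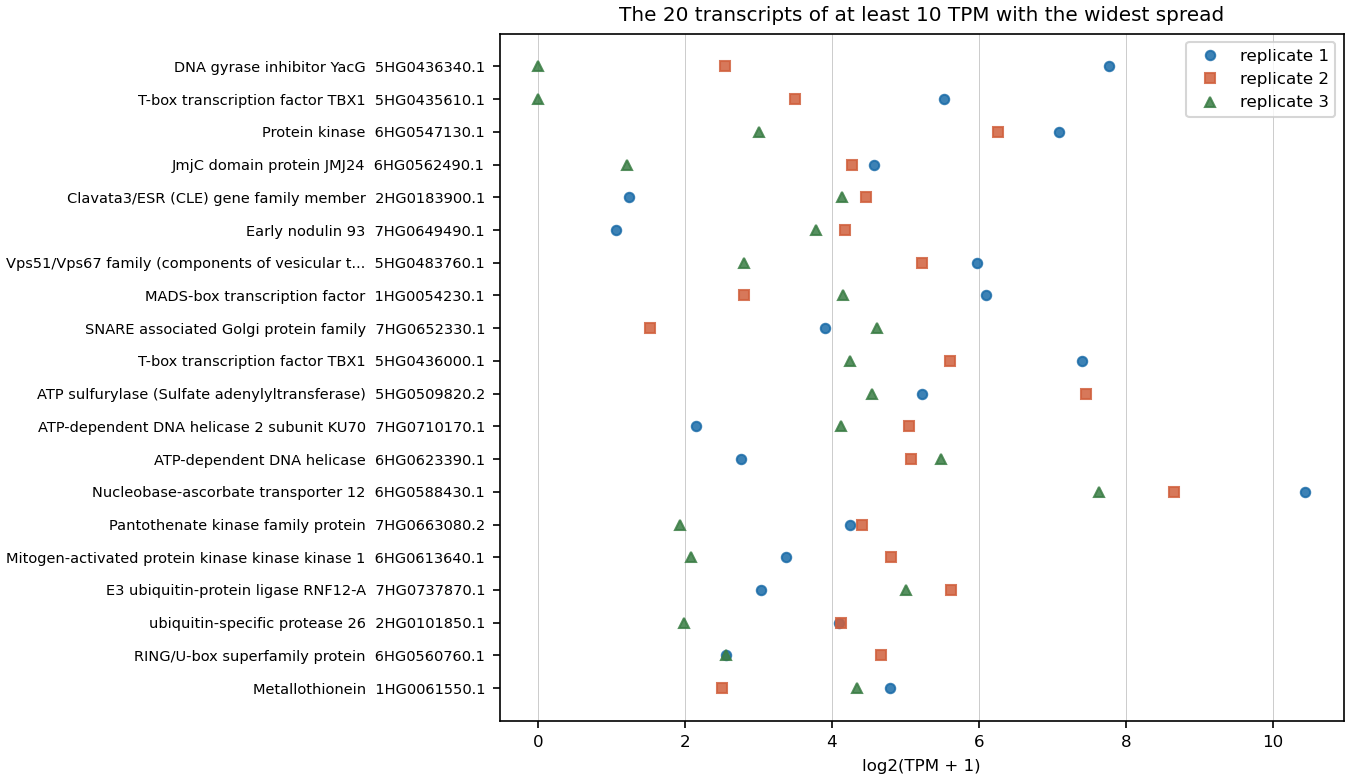
log2(TPM + 1) of the 20 transcripts of at least 10 TPM with the largest SD on that scale, 1 symbol per solvent control replicate, identifiers without their shared prefix. The top transcript, described as DNA gyrase inhibitor YacG, lies at 0 in replicate 3, and replicates 1 and 2 share the highest values, with 9 transcripts each.

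Several transcripts with a wide spread share a run of identifiers on chromosome 5H, a group picked after its values were seen. Its 76 transcripts summed to 13251, 14039 and 14159 TPM, a CV of 3.57%. Within it, HORVU.MOREX.r3.5HG0436260.1, described as a nucleoside-triphosphatase and receptor, had 2222, 4094 and 7300.3 TPM, and HORVU.MOREX.r3.5HG0435820.1, described as senescence-associated, had 4469.7, 3864 and 2167 TPM. The first was highest in replicate 3 and the second in replicate 1. The lectin protein kinases HORVU.MOREX.r3.5HG0435490.1 and HORVU.MOREX.r3.5HG0434930.1 had 2346, 2569 and 1655 TPM and 395, 238 and 144 TPM. The transcript HORVU.MOREX.r3.5HG0436000.1, described as T-box transcription factor TBX1, the name of a vertebrate protein, had 169, 47.9 and 18.0 TPM. The sum of the run was thus steady while its members varied in opposite directions, and the part that the division of reads among similar transcripts plays in this was not tested. The kinase class above is led by a member of this run, and without it the class would be led by HORVU.MOREX.r3.2HG0109330.

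At the other end, the 10 steadiest transcripts of at least 100 TPM had CVs between 0.311% and 0.744% as deposited. They included the subunit F of NADH oxidoreductase HORVU.MOREX.r3.2HG0145600.2 with 146, 146 and 147 TPM, initiation factor 6 HORVU.MOREX.r3.2HG0120220.1 with 209.6, 208 and 208 TPM, transaldolase HORVU.MOREX.r3.3HG0312010.1 with 428, 434 and 429.8 TPM and glutaredoxin HORVU.MOREX.r3.2HG0180500.1, the most abundant of the 10, with 2379.6, 2369.8 and 2347 TPM. With 3 libraries the order among the 10 is not resolved. Their CVs are also far below the 12.0% by which the largest scaling factor exceeded the smallest. Which transcripts are steadiest thus depends on the scaling.

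Genes often used as references for qPCR were compared by their sums and leading copies. Ubiquitin and polyubiquitin summed to 6074, 6334 and 6261 TPM over 59 loci, elongation factor 1-alpha to 2436, 2647 and 2675 TPM, actin to 1228, 1171 and 1144 TPM, tubulin to 1309, 1440.5 and 1453 TPM and glyceraldehyde-3-phosphate dehydrogenase to 1458, 1732 and 1553 TPM. The CVs of these sums were 2.15%, 5.05%, 3.61%, 5.69% and 8.79%. As deposited, the last was above the median CV of 7.08% for family sums and the 4 others were below it. These CVs were not computed with scaling by median ratios. The largest scaling factor exceeded the smallest by 12.0%, so the order of these genes can change with it. The leading polyubiquitin, HORVU.MOREX.r3.7HG0732860, had 1108, 1166 and 1124 TPM, a CV of 2.64%, and the leading elongation factor, HORVU.MOREX.r3.2HG0107850, had a CV of 2.18%. Other loci of these groups were less steady. The leading locus described as ubiquitin, HORVU.MOREX.r3.1HG0024910, had 387, 539 and 673 TPM, a CV of 26.8%, and the third glyceraldehyde-3-phosphate dehydrogenase, HORVU.MOREX.r3.2HG0099930, had 69.9, 39.9 and 67.9 TPM, a CV of 28.3%.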

How the data were processed

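Polyadenylated RNA of Golden Promise roots was made into stranded libraries and read as pairs, and per the submitters' processing notes reads were trimmed with Trimmomatic 0.39 and quantified with kallisto 0.46.1. The paper's methods name the MorexV3 cDNA as reference, that is, another cultivar. The paper gives 4 replicates per treatment, and 3 solvent control libraries were used here. The deposited signal is TPM per transcript and library, in a table of 43382 lines of which 5420 repeat a transcript with the same values and were dropped. The authors' log2 fold changes and q-values (sleuth) in the same table compare treatments and were not used. Descriptions end at their first comma, and 239 transcripts have several, of which the first was kept. TPM keep no depth, so the precision is the spread over 3 libraries, and with 1 group no test was made.

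Loci were sorted into 54 classes by words in the description, the first match deciding, and shares, SD and CV were computed with pandas 2.3.3 and numpy 2.4.6 in Python 3.11.15, tested on simulated data. A rule chose the transcripts named: the 30 most abundant, the 3 leading loci of each class or list, leading copies of families, the 20 most and 10 least variable (the latter of at least 100 TPM), and reference genes. Some of these enter only within ranges. Second copies of close pairs, the sixth wound-induced inhibitor and the runs of identifiers were named after their values were seen. The classes, lists and rule were set with earlier results of these data known, and class words were completed after the descriptions and values had been seen. Of the locus identifiers, 0 matched the gene table at hand, so positions and sequences are not given.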

Additional observations from a re-analysis of the deposited data

How the results depend on the processing

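The alternatives tried were repeated lines kept, TPM summed per locus, other minimum levels, other readings of the descriptions, median-ratio scaling, a log scale, and each library left out. With repeated lines kept, the 100 most abundant transcripts held 35.6% of the TPM in place of 36.9%, protease inhibitors 16.7% in place of 15.6%, and the median share of a leading copy was 54.0% in place of 53.5%. That median was 56.2% when families of 10 TPM or more were taken, 49.4% when only loci above 1 TPM counted as copies, and 51.4% when descriptions were compared without case, digits and punctuation. The median CV was 14.3% with a minimum of 1 TPM in place of 10.4% with 10 TPM, and it ranged between 7.67% and 9.99% over the leave-one-out sets. Those sets have 2 libraries each, so their CVs are not directly comparable with the CV over all libraries. The number of transcripts at 1 TPM or more, a mean of 18346 over the libraries, was 21980.3 with repeated lines kept, 17212.3 for TPM summed per locus, 20148.3 at 0.5 TPM and 12606.7 at 5 TPM, each beyond the SD of 353 between libraries. Leaving out 1 library at a time gave 18192.5 to 18539 transcripts at 1 TPM or more, 36.6% to 37.3% for the top 100, 0.535% to 0.591% for ribosomal proteins, 15.3% to 15.7% for protease inhibitors and 53.4% to 53.8% for the leading copy. Scaling by median ratios moved the number of transcripts highest in replicate 2 to 2540 from 4479 and that of kinases to 206 from 343. The alternatives for protease inhibitors and for the highest library were chosen after seeing the data. The cause of these shifts was not tested. No paired analysis was possible because the libraries form 1 group and no test was made. The unknown depth limits values below 1 TPM most.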
